A study of Mus musculus with 6 samples.

Results

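The splicing factor genes described here are those of the heterogeneous nuclear ribonucleoproteins (hnRNPs), the SR proteins, the branch site complexes SF3A and SF3B, and U2AF, with Ssb, Pnn, Tra2a, Tra2b, Ptbp1 and Ptbp2 added by name. Every gene whose single annotated symbol begins with Hnrnp, Hnrp, Srsf, Sfrs, Sf3 or U2af was taken, which with the added genes gave 45 of 12393 named genes on the array. They comprised 18 hnRNP genes, 9 SR genes, 9 SF3 genes, 3 U2AF genes and the 6 added by name. A gene with several probe sets was represented by the one with the highest mean log2 signal over the 6 arrays. Probe sets were thus chosen by their mean signal. The genes added by name were selected on earlier results of these same arrays, and the families were also chosen with those results known. The differences of all 45 genes are therefore a description. All 45 lay above the filter on dim probe sets, a signal of 19.2, that left 7867 genes for comparison.

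Hippocampal RNA came from male mice aged 2 months on a C57BL/6J background, either Rsk2-KO, which lack the X-linked kinase gene Rps6ka3, or their WT littermates. Each group had 3 arrays, and each array held a pool of 2 hippocampi. The labels describe no driver, transgene or treatment. Whether an animal gave tissue to more than 1 pool is unstated, and p-values therefore measure the spread between pools only. The study asked which molecular pathways differ in the hippocampus without Rsk2, a kinase that acts downstream of ERK and phosphorylates the transcription factor CREB among other targets.

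SR proteins bind exonic enhancers through their RNA recognition motifs and recruit the spliceosome through arginine and serine rich tails, whose phosphorylation controls their activity. Many hnRNPs bind the same transcripts and often act in the opposite sense, and they also package, export and stabilise mRNA. U2AF recognises the end of the intron and brings in the U2 particle, whose SF3A and SF3B complexes hold the branch site. In neurons these factors set the exon choice of receptors, ion channels and synaptic adhesion proteins, and several regulate their own transcripts through exons that trigger decay.

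Rps6ka3 itself had signals of 99.2, 98.4 and 87.0 on the Rsk2-KO arrays and 74.2, 59.7 and 89.2 on the WT arrays, and so was not lower in the knockout. The position of this probe set in the gene was not analysed, so its values cannot check the array labels, which name the groups throughout. The arrays Rsk2-KO 3 and WT 3 were set off from the other 4 by a principal component with 40.2% of the variance (scores of 20.0 and 23.6, against -15.6 to -6.36), so differences are also given without these arrays and between them. Of 5 marker genes of hippocampal principal neurons, all 5 were measured. In all 5 the arrays numbered 3 differed from the others by more than the groups did, beside 57.6% of all genes. On the log2 scale that difference was -1.37 for Neurod6, -0.47 for Wfs1, -0.08 for Dsp, 0.42 for Prox1 and 0.50 for Zbtb20. Summed microglial marker signals (7 of 7 genes) were 1293 to 1339 on the Rsk2-KO arrays and 1415 to 1466 on the WT arrays. Endothelial sums (5 of 5) were 260 to 270 against 279 to 318. Sums for neurons (5 of 5 genes, 6167 to 6375 against 5646 to 6104) also did not overlap, while those for astrocytes and oligodendrocytes did. Snap25, at 2261 to 2933, was the largest term of the neuron sum. Csf1r, at 536 to 716, was that of the microglial sum, and Cldn5, at 121 to 162, that of the endothelial sum. In each of these genes the groups overlapped. By gene, log2 differences (Rsk2-KO minus WT) were above 0 in 3 of 5 neuron genes (median 0.0096), and none was free of overlap. They were above 0 in 2 of 7 microglial genes (median -0.06) and 1 of 5 endothelial genes (median -0.15). The choroid plexus marker Ttr ranged from 504 to 2122 and was highest on WT 3, Rsk2-KO 1 and Rsk2-KO 3. The part of these markers in the differences below was not tested. In such bulk tissue, fewer cells of a type and less RNA per cell cannot be told apart.

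No splicing factor gene passed the test between the groups. In limma, 0 of the 45 had an adjusted p under 0.05, the lowest being 0.617, and over all genes the share called was 0%. At an unadjusted p under 0.05 there were 6 of 45, beside 7.49% of all genes; 4 of these were among the 39 genes not added by name. In all, 28 of the 45 had a higher mean log2 signal on the Rsk2-KO arrays and 17 a lower one, where 43.6% of all genes were higher. The median log2 difference (Rsk2-KO minus WT) was 0.13, beside -0.04 over all genes. Without the 6 genes added by name it was 0.12, with 23 of 39 genes higher. By family, 16 of 18 hnRNP genes were above 0 (median 0.18), 5 of 9 SR genes (median 0.12), 2 of 9 SF3 genes (median -0.06) and 0 of 3 U2AF genes (median -0.07). Differences between families were not tested. These counts were the same after quantile normalization or median centring, but not with single arrays left out. The hnRNP count was then 12 of 18 without WT 3 and 13 of 18 without Rsk2-KO 1. The SF3 count was 4 of 9 without Rsk2-KO 2, WT 1 or WT 2, and also with a trend on gene length removed. The U2AF count was 1 of 3 without Rsk2-KO 2 or WT 3.

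**Figure D1:**
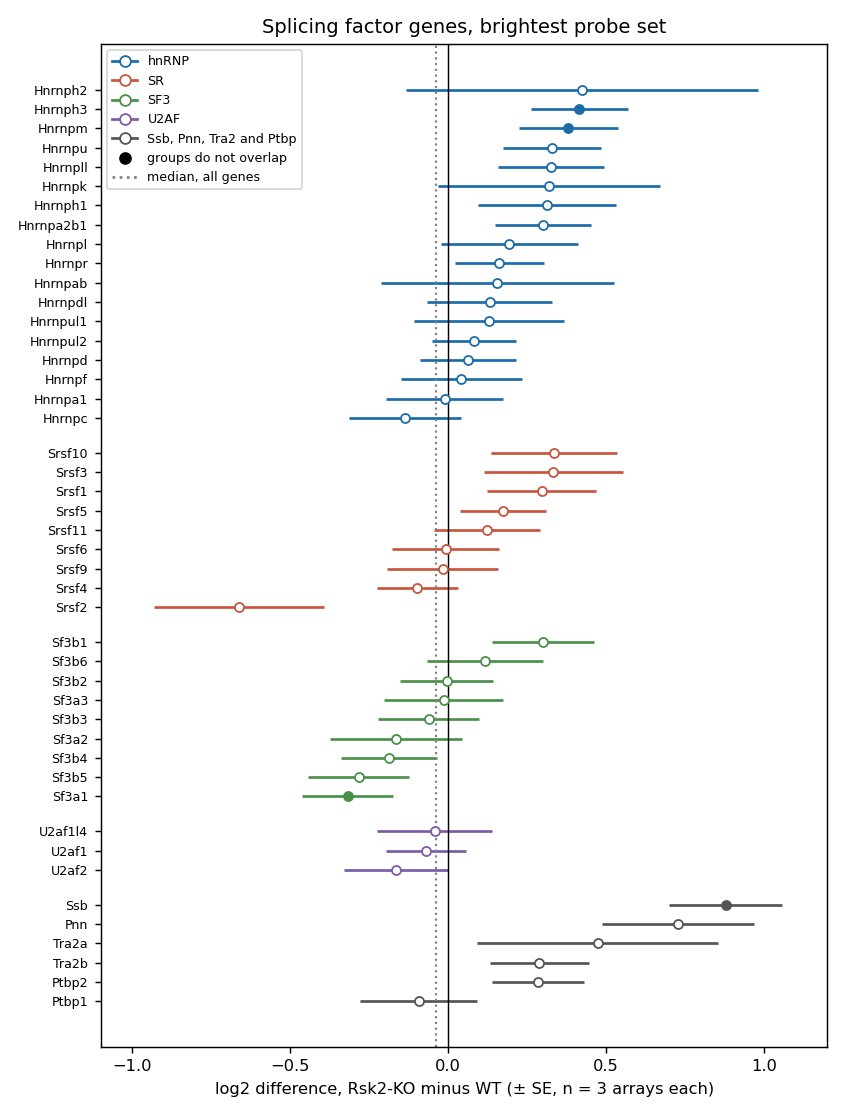
Log2 difference in signal between Rsk2-KO and WT arrays for each of the 45 splicing factor genes (points, with SE; n = 3 arrays in each group), by family. Filled points mark the 4 genes whose groups do not overlap. Most hnRNP genes lie to the right of 0, most SF3 and all U2AF genes to the left, and the median of all genes is at -0.04.

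The groups did not overlap in 4 of the 45 genes. Those higher on every Rsk2-KO array were Ssb, Hnrnph3 and Hnrnpm, or 3 genes beside 5.47% of all genes; Sf3a1 alone was lower on every one, beside 8.76% of all genes. In total 8.89% of the splicing factor genes were free of overlap, below the 14.2% of all genes, so this count does not set them apart. The windows from 250 bases before to 50 bases after an annotated start of these 4 genes are printed because their RNA signals separated the groups. They were taken from RefSeq on build GRCm38.p6, which held a window for 40 of the 45 genes. Ssb lies at chr2:69861312-69861611 on the plus strand, Hnrnph3 at chr10:63023800-63024099 on the minus strand, Hnrnpm at chr17:33685409-33685708 on the minus strand and Sf3a1 at chr11:4160104-4160403 on the plus strand, each window read 5′ to 3′ along the gene. Capitals mark, on either strand, the CREB core motif TGACG, the ETS site CCGGAAG, the GC box GGGCGG and the CCAAT box CCAAT.
Ssb: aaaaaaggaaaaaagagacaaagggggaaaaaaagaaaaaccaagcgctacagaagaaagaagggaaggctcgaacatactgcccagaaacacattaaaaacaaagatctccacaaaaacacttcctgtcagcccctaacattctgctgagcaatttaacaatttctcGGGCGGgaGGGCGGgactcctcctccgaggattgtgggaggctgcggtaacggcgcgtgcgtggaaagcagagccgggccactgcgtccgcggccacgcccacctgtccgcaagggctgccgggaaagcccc
Hnrnph3: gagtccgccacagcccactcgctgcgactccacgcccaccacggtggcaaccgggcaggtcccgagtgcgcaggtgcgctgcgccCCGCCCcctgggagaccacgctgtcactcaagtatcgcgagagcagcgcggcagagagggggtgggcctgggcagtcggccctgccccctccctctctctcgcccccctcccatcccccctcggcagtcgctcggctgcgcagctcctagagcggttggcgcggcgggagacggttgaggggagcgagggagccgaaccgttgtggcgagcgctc
Hnrnpm: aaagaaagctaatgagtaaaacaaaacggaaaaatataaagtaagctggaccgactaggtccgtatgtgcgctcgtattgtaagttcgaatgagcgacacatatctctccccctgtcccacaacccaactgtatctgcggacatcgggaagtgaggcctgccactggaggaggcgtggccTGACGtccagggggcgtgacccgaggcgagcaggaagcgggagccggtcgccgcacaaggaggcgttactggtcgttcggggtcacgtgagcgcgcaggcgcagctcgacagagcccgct
Sf3a1: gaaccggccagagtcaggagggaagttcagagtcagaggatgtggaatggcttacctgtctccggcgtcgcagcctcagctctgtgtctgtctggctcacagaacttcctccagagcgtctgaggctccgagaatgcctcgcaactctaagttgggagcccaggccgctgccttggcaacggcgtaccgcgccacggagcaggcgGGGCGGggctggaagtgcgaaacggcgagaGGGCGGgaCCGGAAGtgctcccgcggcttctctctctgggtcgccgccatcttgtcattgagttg

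The windows of Ssb and Sf3a1 each held 2 GC boxes and that of Hnrnph3 held 1. The Hnrnpm window held the only TGACG, and Sf3a1 the only CCGGAAG, among these 4. Over the 54 windows of the 40 genes, 50% held TGACG, against 20.8% of all 32851 windows in the table and 23.6% of the 21262 windows of protein coding genes. For GGGCGG the shares were 75.9%, 35.7% and 46.2%, for CCGGAAG 31.5%, 8.86% and 11.6%, and for CCAAT 50%, 37.4% and 38.2%. No one of these 4 motifs contains another, but TGACG is part of the full CREB site TGACGTCA, which was in 1.85% of these windows, 1.79% of all windows and 2.23% of protein coding windows. Several genes have more than 1 window, and windows of one gene can overlap. All 4 short motifs were more frequent in the windows of the splicing factor genes, and the windows compared were not matched for base composition. No motif is therefore singled out. A match is a run of letters only, and binding was not measured.

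Ssb encodes La, the protein that binds the uridine tail of new RNA polymerase III transcripts and protects them. Its signals at 1453928_a_at were 246, 278 and 181 on the Rsk2-KO arrays and 113, 129.6 and 136 on the WT arrays. All Rsk2-KO arrays were above all WT arrays, with the smallest gap on the arrays numbered 3. Mean signals were 235 ± 49.5 in Rsk2-KO and 126 ± 11.7 in WT (SD, n = 3), or 0.88 on the log2 scale (SE 0.18, limma adjusted p = 0.617). Without the arrays numbered 3 the difference was 1.11, and between those arrays 0.41. Of its 3 other kept probe sets, all were higher, by 0.46, 0.76 and 0.23, and in each the groups overlapped. Between the arrays numbered 3 these differed by -0.07, 0.34 and -0.10, so the direction there depended on the probe set. La-related and Ro genes had 3 of 5 measured genes above 0, 2 below and none past the test. The largest difference was that of Larp6, at -0.44 (SE 0.23) with overlap. Larp7, which stabilises the 7SK RNA, was higher on every Rsk2-KO array, with 67.0, 53.1 and 66.1 against 45.6, 50.6 and 46.6.

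Pnn encodes pinin, an SR-related protein of nuclear speckles that also occurs at desmosomes. It had signals of 255, 263 and 135 on the Rsk2-KO arrays and 113, 139 and 127 on the WT arrays. Rsk2-KO 1 and 2 were well above every WT array, but Rsk2-KO 3 lay below WT 2, so the groups overlapped. The log2 difference was 0.73 (SE 0.24), with 1.05 for the arrays numbered 1 and 2 alone and 0.09 for those numbered 3. Both other kept probe sets were higher too, by 0.37 and 0.57.

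Tra2a and Tra2b encode a pair of SR-like activators that bind GAA-rich enhancers. For Tra2b the signals were 483, 469.8 and 422 on the Rsk2-KO arrays and 346, 329 and 461 on the WT arrays, a log2 difference of 0.29 (SE 0.16). WT 3 lay above Rsk2-KO 3, and the difference was 0.50 without the arrays numbered 3 but -0.13 between them. At its second kept probe set, 1419543_a_at, Tra2b had 295, 301 and 273 against 181, 213 and 271, without overlap, by the narrowest of margins on the arrays numbered 3. Tra2a had 190.2, 184 and 67.0 against 102, 130.5 and 65.8. Its difference of 0.47 (SE 0.38) came with signals on both arrays numbered 3 that were below every other array; the mean log2 difference between those and the other arrays was -1.15.

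Ptbp1 encodes the repressor of neural exons found in non-neuronal cells and progenitors, and Ptbp2 the related protein that takes its place as neurons develop. Ptbp2 had signals of 444, 443 and 338 on the Rsk2-KO arrays against 323, 337 and 339, a log2 difference of 0.28 (SE 0.15). Rsk2-KO 1 and 2 were above all WT arrays, while Rsk2-KO 3 was level with WT 2 and WT 3. Ptbp1 had 101, 102 and 75.2 against 106, 107 and 82.7, a difference of -0.09 (SE 0.18). Rsk2-KO and WT arrays of the same number were close for Ptbp1, and both arrays numbered 3 were the lowest of their group.

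**Figure D2:**
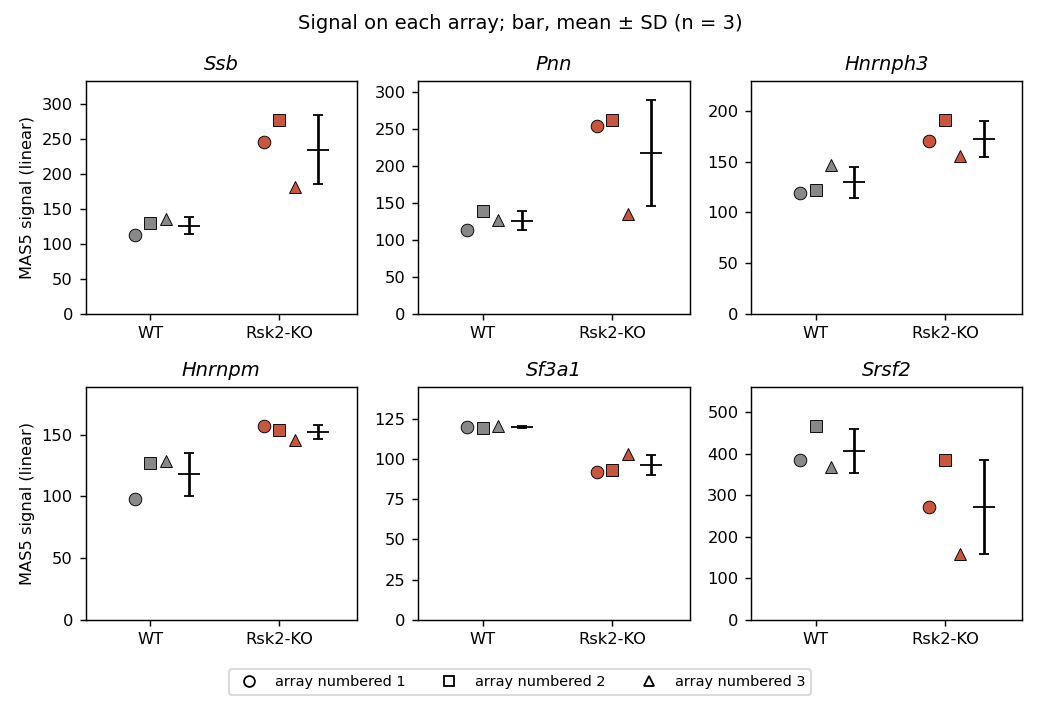
MAS5 signal on each array (linear scale, from 0) for 6 splicing factor genes; symbols give the array number, and the bar is the mean with SD (n = 3). Ssb, Hnrnph3 and Hnrnpm are higher and Sf3a1 lower on every Rsk2-KO array, while Pnn is near the WT level on Rsk2-KO 3 (135) and Srsf2 is lowest there (159).

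Among the hnRNP genes, Hnrnph3 and Hnrnpm were the 2 whose groups did not overlap. Hnrnph3, of the family that binds runs of G, had 170.1, 191 and 155 on the Rsk2-KO arrays and 119, 122 and 147 on the WT arrays. WT 3 came close to Rsk2-KO 3, and the log2 difference of 0.41 (SE 0.15, limma adjusted p = 0.617) was 0.58 without the arrays numbered 3 and 0.08 between them. Hnrnpm, which binds GU-rich sequence, had 157, 154 and 146 against 97.9, 127 and 129. Its Rsk2-KO arrays were close to each other and above all WT arrays, a difference of 0.38 (SE 0.16); between the arrays numbered 3 it was 0.18. Both genes have 1 probe set, so no second readout bears on them.

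Hnrnpu, a scaffold protein that ties nascent RNA to chromatin, and Hnrnpa2b1, which sorts mRNA into dendrites, had several probe sets that all leaned the same way. These were singled out after their values were seen. Hnrnpu had 959.9, 943 and 691 on the Rsk2-KO arrays against 714, 693 and 639, a log2 difference of 0.33 (SE 0.16), and its 4 other kept probe sets differed by 0.23 to 0.47. Hnrnpa2b1 had 1035, 1078 and 789 against 725, 841 and 775, a difference of 0.30 (SE 0.15), with 3 others at 0.36 to 0.62 (SE 0.30 to 0.50). At the brightest probe sets of both genes Rsk2-KO 1 and 2 were above every WT array and Rsk2-KO 3 was not. Between the arrays numbered 3 the differences at these probe sets were 0.11 and 0.03. At the other kept probe sets they ran from -0.23 to 0.06 for Hnrnpu and were -0.63, 0.15 and -0.23 for Hnrnpa2b1.

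Hnrnpdl, a relative of the AU-rich element binding protein encoded by Hnrnpd, had 1107, 1158 and 1517 on the Rsk2-KO arrays and 1072, 916 and 1509 on the WT arrays, and both arrays numbered 3 were highest (difference 0.13, SE 0.20). Hnrnpl, which binds CA repeats, had 77.1, 82.9 and 50.1 against 60.9, 64.1 and 54.9, with both arrays numbered 3 lowest (difference 0.19, SE 0.22). Hnrnpll, its paralog in immune exon choice, differed by 0.32 (SE 0.17) with overlap at its brightest probe set. At the second, 1427144_at, it had 294, 272 and 207 against 192, 190.5 and 195, without overlap. Hnrnpc, which coats nascent transcripts at runs of uridine, differed by -0.14, and Hnrnph1 by 0.31. The differences of Hnrnpr, Hnrnpul1, Hnrnpul2, Hnrnpd and Hnrnpf were 0.16, 0.13, 0.08, 0.06 and 0.04. Hnrnpa1, at -0.01, was read by a probe set ending in _x_at, a class that can cross-react with similar sequence. Other probe sets assigned to Hnrnpa1 also match pseudogenes, so its value is uncertain. Its other kept probe set differed by 0.37 (SE 0.28), with overlap.

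In some hnRNP genes the signal differed more between array numbers than between the groups. These were singled out after their values were seen, apart from Hnrnpk, named because its probe sets disagree. At their brightest probe sets, Hnrnph2 and Hnrnpk were still higher in Rsk2-KO at each array number. Hnrnph2 had 417, 419 and 108 on the Rsk2-KO arrays and 269, 327 and 89.1 on the WT arrays, so the arrays numbered 3 differed from the others by -1.84 on the log2 scale while the groups differed by 0.42 (SE 0.56). Hnrnpk, a poly-C binding protein, had 1167, 1141 and 465 against 756, 924 and 457 at its brightest probe set, with a log2 difference of -1.09 between the arrays numbered 3 and the others. Its probe set 1423684_at showed no such drop: 588, 575 and 613 against 417, 530.4 and 548, with no overlap between the groups and a difference of 0.26 (SE 0.14). Another Hnrnpk probe set, 1448176_a_at, differed by -0.01.

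Hnrnpab, which binds AU-rich elements, dipped instead on the arrays numbered 2. At its brightest probe set it had 1529, 810.4 and 1513 on the Rsk2-KO arrays and 1538, 575 and 1538 on the WT arrays. The other 4 arrays were close to each other. The group difference there was 0.15 (SE 0.37), while the other kept probe sets had -0.19, -0.11, -0.07 and 0.11, so its direction depended on the probe set. None of the 4 other kept probe sets of Hnrnpab was lowest on both arrays numbered 2; at 1448144_at the WT array numbered 2 was the highest of all. Hnrnph1 showed opposite readings on the arrays numbered 3: 929 and 962, the highest, at 1415872_at, but 14.6 and 16.6, the lowest, at 1437267_x_at. In Hnrnpdl, too, 1428224_at was lowest there (22.0 and 19.9) where 1424251_a_at was highest. These low Hnrnph1 signals lie under the filter signal of 19.2, which was applied to the mean over arrays, and those of Hnrnpdl are just above it. Such dim readings are uncertain. Over the 45 genes the arrays numbered 3 differed from the others by more than the groups did in 26, or 57.8%, close to the 57.6% of all genes.

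**Figure D3:**
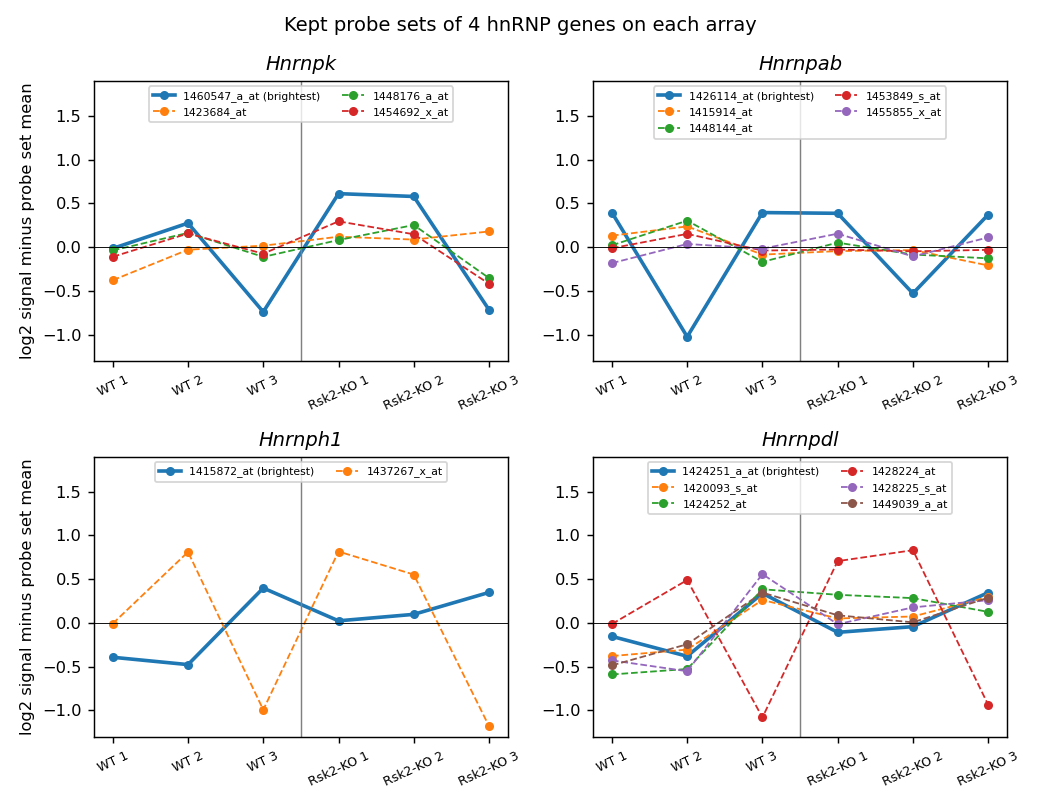
Log2 signal of each kept probe set on each array, minus that probe set's own mean over the 6 arrays, for 4 hnRNP genes; the solid line is the brightest probe set. The brightest Hnrnpk probe set drops on both arrays numbered 3 and that of Hnrnpab on both arrays numbered 2, while 1423684_at of Hnrnpk and the other Hnrnpab probe sets do not; Hnrnph1 probe sets move in opposite directions on the arrays numbered 3.

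Of the SR genes, Srsf2 had the largest difference, and it was the 1 SR gene with an unadjusted p under 0.05; it was singled out after its values were seen. Its product, also known as SC35, marks nuclear speckles. The signals at 1427504_s_at were 273, 386 and 159 on the Rsk2-KO arrays and 386, 467 and 368 on the WT arrays, a log2 difference of -0.66 (SE 0.27). Rsk2-KO 2 was level with WT 1, and Rsk2-KO 3 was by far the lowest. Without the arrays numbered 3 the difference was -0.39, and between them it was -1.21. Its 3 other kept probe sets differed by -0.26, 0.04 and -0.10, so the size of the difference was seen at 1 probe set. Between the arrays numbered 3 they differed by -0.13, 0.11 and 0.68.

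Srsf1, the prototype SR protein, was singled out after its values were seen for its 6 kept probe sets. All 6 were higher on the Rsk2-KO arrays, by 0.19 to 0.46, and in 2 the groups did not overlap. At 1428100_at the signals were 127, 135 and 116 against 94.3, 88.4 and 105, and at 1434972_x_at 482, 449 and 395 against 326, 369.8 and 379. At the brightest, 1428099_a_at, they were 476, 445 and 591 against 369, 362 and 508, a log2 difference of 0.30 (SE 0.17) with overlap. For this probe set the difference was 0.33 without the arrays numbered 3 and 0.22 between them.

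Srsf3, a short SR protein that also acts in mRNA export, was higher at all 6 of its probe sets, by 0.21 to 0.57, with overlap in each. The SE ran from 0.19 to 0.55, and between the arrays numbered 3 the Srsf3 differences ran from -0.43 to 0.39. Srsf10, which represses splicing when dephosphorylated, had 114, 127 and 98.9 on the Rsk2-KO arrays against 75.6, 80.1 and 118. The direction of Srsf10 turned on the arrays numbered 3 (-0.26, against 0.63 within the arrays numbered 1 and 2; 0.34 over all, SE 0.20). Srsf5 had 1259.7, 1328 and 1207 against 1184, 979 and 1215, a difference of 0.17 (SE 0.14). Rsk2-KO 2 was the highest array for Srsf5 and WT 2 the lowest, and the groups overlapped.

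Srsf6 depended on the probe set. At the brightest the signals were 398, 431 and 480.2 on the Rsk2-KO arrays and 399, 376 and 559 on the WT arrays, a difference of -0.01 (SE 0.17). At 1416720_at they were 165, 176 and 174 against 143, 145 and 155, without overlap, a difference of 0.22 (SE 0.13). Srsf11 showed the same split, at 0.12 with overlap and, at 1427269_at, 0.41 without it. Srsf4 and Srsf9 differed by -0.10 and -0.02, each with 1 probe set. Over all 45 genes there were 66 other kept probe sets, of which 56 had the sign of the brightest of their gene and 52 were higher on the Rsk2-KO arrays. In 7 of the 66, or 10.6%, the groups did not overlap with Rsk2-KO higher, beside 5.9% of all kept probe sets, and in 0 with Rsk2-KO lower, beside 7.95%. These 7 belonged to Hnrnpk, Hnrnpll, Srsf1 (2), Srsf6, Srsf11 and Tra2b. Probe sets of one gene read the same RNA on the same arrays and are not replicates.

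Of the 9 SF3 genes, 7 were below 0. Sf3a1, the SF3A subunit that also contacts the U1 particle, had 92.1, 93.3 and 103 on the Rsk2-KO arrays and 119.6, 119 and 121 on the WT arrays. The WT arrays were nearly identical and every Rsk2-KO array lay below them, a log2 difference of -0.32 (SE 0.14, limma adjusted p = 0.617). It was -0.37 without the arrays numbered 3 and -0.22 between them, and the second kept probe set had -0.15. Sf3b1, the large subunit that clamps the branch site, was above 0: 553, 532 and 563 against 391, 399 and 569, a difference of 0.30 (SE 0.16). WT 3 was the highest of the 6 arrays for Sf3b1, and its difference between the arrays numbered 3 was -0.02.

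In the other SF3 genes the groups overlapped. Sf3a3 had 92.6, 86.1 and 129 on the Rsk2-KO arrays against 99.0, 92.9 and 115, a difference of -0.01 (SE 0.19), and 0.20 at its second probe set. Sf3a2, Sf3b4 and Sf3b5 differed by -0.17, -0.19 and -0.28. At these brightest probe sets the arrays numbered 1 and 2 were lower in Rsk2-KO while those numbered 3 were not. At their second kept probe sets Sf3a2 (-0.28 and -0.11) and Sf3b4 (-0.13 and -0.02) were lower in both. Sf3b2 and Sf3b3 were at -0.01 and -0.06, and Sf3b6, whose product touches the branch site adenosine, at 0.12. The Sf3b2 value came from a probe set ending in _x_at, and its other kept probe sets had -0.29, -0.22 and -0.06. For Sf3b6 the other kept probe sets had -0.18 and 0.23.

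The 3 U2AF genes had small differences, all below 0. U2af2, whose product binds the pyrimidine tract, had 169, 148 and 152 on the Rsk2-KO arrays and 149, 215 and 167 on the WT arrays (difference -0.16, SE 0.16), and WT 2 stood above the rest. U2af1, whose product reads the AG at the end of the intron, had 253, 242 and 269.5 against 264, 260.0 and 279, a difference of -0.07 (SE 0.13). U2af1l4, a paralog of U2af1, differed by -0.04. A U2af1l4 probe set that is also assigned to Igflr1 was not used.

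Most of these differences lay within the arrays numbered 1 and 2. There 31 of 45 genes were higher in Rsk2-KO, with a median log2 difference of 0.19; between the arrays numbered 3 it was 23 of 45 with a median of 0.00043. For hnRNP genes the medians were 0.30 and 0.03, for SR genes 0.26 and -0.09, and for SF3 genes -0.16 and 0.00043. Over all genes they were -0.06 and -0.01. The pattern was not particular to the splicing factor genes. Over all genes a second principal component, with 27.8% of the variance, had Rsk2-KO 1 and 2 at 17.4 and 13.7. On it WT 1 and 2 lay at -19.4 and -12.4, while Rsk2-KO 3 and WT 3 were close, at 1.32 and -0.55. Relative to a gene's own mean, the median hnRNP gene was at 0.23, 0.18 and -0.04 on the Rsk2-KO arrays and at -0.08, -0.06 and -0.12 on the WT arrays, so Rsk2-KO 1 and 2 stood out and Rsk2-KO 3 did not. An interaction of genotype with the arrays numbered 3, added after seeing the data, was fitted in limma. It is the log2 difference between the arrays numbered 3 minus that within the arrays numbered 1 and 2. Over the 45 genes its estimates ran from -0.96 (Pnn) to 0.89 (Sf3a2). The interaction rests on 1 array of each label numbered 3, so no gene is called from it.

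The calls depended on these arrays. With limma's array weights 2 of the 45 genes had an adjusted p under 0.05, Ssb (1.04, adjusted p = 0.0318) and Pnn (0.98, adjusted p = 0.0478), beside 0.534% of all genes called higher and 0.114% called lower. Both belong to the 6 genes added by name, so nothing is read from this; of the other 39 genes 0 were called. Without both arrays numbered 3, 6 genes were called, all of them higher, beside 2.96% of all genes called higher and 0.648% called lower. These were Ssb and Pnn (adjusted p = 0.0214 each), Tra2a (adjusted p = 0.0453), and Tra2b, Hnrnph1 and Hnrnpll (adjusted p = 0.0469 each, limma throughout). Of these 4 were added by name, and 2 of the other 39, Hnrnph1 and Hnrnpll, were called. The other 39 were also chosen with earlier results known, so these calls too are a description. In that fit the groups did not overlap in 32 of 45 genes, beside 57.2% of all genes. Leaving out Rsk2-KO 3 alone gave 21 genes without overlap (36.5% of all genes), WT 3 alone 18 (34.9%), WT 2 alone 8 (23.4%) and WT 1 alone 6 (19.8%). Without Rsk2-KO 1 it was 4 genes (17.5%) and without Rsk2-KO 2 it was 5 (20.8%). With the mean over all kept probe sets in place of the brightest it was 2 genes (15.2%), and with the trend on gene length removed 7 (13.4%).

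**Figure D4:**
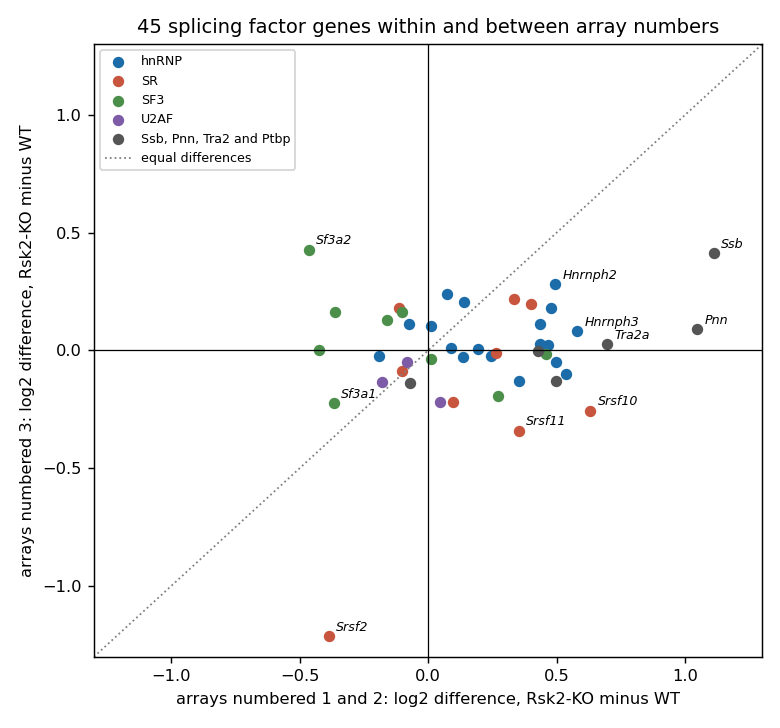
Log2 difference between Rsk2-KO and WT within the arrays numbered 1 and 2 (x axis, 2 arrays in each group) and between the arrays numbered 3 (y axis, 1 array each) for the 45 genes, coloured by family; the dotted line marks equal differences. At the brightest probe set of each gene, plotted here, Ssb (1.11 and 0.41) and Srsf2 (-0.39 and -1.21) keep their direction. Pnn (1.05 and 0.09) lies near 0 on the y axis, and Sf3a2 (-0.46 and 0.43) and Srsf10 (0.63 and -0.26) turn. Some other probe sets of Ssb, Srsf2 and Sf3a2 differ in this.

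Gene length was compared as well. The 45 genes are short, with a median span of 12.2 kb against 23.6 kb for all genes. All genes with spans between 6.78 and 23.2 kb, the middle range of the splicing factor genes, had a median log2 difference of -0.07, and 36.3% of them were above 0. After a trend on gene length was taken out of every array, 34 of the 45 genes were above 0, with a median of 0.17, while the median of all genes moved from -0.04 to -0.0087. 

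Other genes of the splicing pathway were taken from lists, and none of their members passed the test. The snRNP and spliceosome core genes, which form the catalytic machine, had 21 of 49 above 0 and a median of -0.04, the same as all genes. Snrpb2 of the U2 particle had 169.6, 161 and 129.95 on the Rsk2-KO arrays against 108, 115 and 111, and the helicase gene Ddx5 had 1131, 1134 and 1086 against 765, 863 and 1015. Both were higher on every Rsk2-KO array, by 0.45 (SE 0.15) and 0.35 (SE 0.14). Prpf19, of the complex that activates the spliceosome, and Usp39, of the tri-snRNP, were lower on every one, with differences of -0.33 (SE 0.13) and -0.21 (SE 0.14). Both were read at probe sets ending in _x_at, and the direction turned with another choice: Prpf19 was at 0.0096 with the mean of its probe sets, and Usp39 at 0.0061 without probe sets of that class or ending in _s_at.

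Genes of the exon junction complex and the SR-related coactivators had 12 of 14 above 0 and a median of 0.20 (11 of 14 after median centring). The coactivator Srrm1 had 201, 235 and 197 against 151, 184 and 169.6, and the speckle core gene Son had 524, 526 and 525 against 426, 433 and 508. SR protein kinase genes, whose products phosphorylate the tails of SR proteins, had 8 of 9 above 0, and a median of 0.13. That count was 7 of 9 after quantile normalization or median centring, 6 with array weights or without WT 2, and 5 without Rsk2-KO 3 (median 0.06) or without both arrays numbered 3. Srpk2 was higher on every Rsk2-KO array, with 284, 268 and 254 against 206, 207 and 238, a difference of 0.31 (SE 0.13). Genes of the hnRNP class under other symbols had 8 of 13 above 0 (median 0.15), and neuronal and tissue splicing regulators 16 of 21 (median 0.18); in neither was there a gene without overlap. Between the arrays numbered 3 the medians of these 4 lists were 0.01, 0.09, -0.10 and -0.01.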

How the data were processed

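The deposited values are linear MAS5 intensity, 1 signal for each probe set, per the submitters' processing notes, which name no version. Each array had a trimmed mean of 99.99, checked from the values, so a difference in total RNA would be removed. Precision is limited by the 3 arrays in each group.

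The platform annotation gave 1 gene symbol for 20380 of 22690 probe sets, several for 691 and none for 1555, besides 64 controls. No normalization was added before log2. A filter at the 40th percentile of mean log2 removed dim probe sets, and the brightest probe set stood for a gene. Values for other probe sets come from a fit over all 13579 kept probe sets. The comparison used limma 3.58.1 under R 4.3.3 (lmFit, eBayes with intensity trend, two-sided, Benjamini-Hochberg over 7867 genes), tested on simulated data. An exact permutation test of 3 against 3 cannot go below 0.1 and was not used.

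Members, lists and the rule for named genes were chosen with earlier results of these data known. The rule named the genes added by name, the genes without overlap, the brightest and dimmest of each family, genes whose probe sets disagree in sign with one free of overlap, and up to 2 genes in each direction per list. Signals of different probe sets are not comparable as RNA levels. Alternatives were another normalization, offset, filter, variance model or probe set rule, a block for the array number, arrays left out, and removal of the span trend.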

Additional observations from a re-analysis of the deposited data

How the results depend on the processing

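The count of all genes past the threshold, 0, became 51 with array weights, 1 with the replicate block, 1 with the arrays numbered 3 as a batch and 284 without both these arrays. The count of splicing factor genes past it, 0, became 2 with array weights (Ssb, 1.04, and Pnn, 0.98) and 6 without both arrays numbered 3 (Ssb, Pnn, Tra2a, Tra2b, Hnrnph1 and Hnrnpll; 2.96% of all genes were called higher there and 0.648% lower). With array weights 0.534% of all genes were called higher. The count of splicing factor genes without overlap, 4, was 2 with the mean of all probe sets, 7 with the span trend removed and 32 without both arrays numbered 3, where 57.2% of all genes were free of overlap. With single arrays left out it ran from 4 to 21: 21 without Rsk2-KO 3 (36.5% of all genes), 18 without WT 3 (34.9%) and 8 without WT 2 (23.4%). Fewer arrays leave more genes without overlap. The median difference of the 45 genes stayed within 1 SD of its array medians, 0.0816, under all 20 alternatives, from 0.07 without Rsk2-KO 1 to 0.20 without WT 1.

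Direction turned for 8 named genes. Sf3a3 became 0.095 with the mean of all probe sets and 0.034 with the span trend removed, and ran from -0.19 to 0.10 with single arrays left out. Srsf6 became 0.020 with array weights, 0.067 with the mean of probe sets, 0.097 without both arrays numbered 3 and 0.085 with the span trend removed (-0.12 to 0.17 with single arrays left out). Hnrnpab became -0.021 with the mean of probe sets, and ran from -0.32 to 0.46 with single arrays left out. Ptbp1 ran from -0.22 to 0.049, Hnrnpdl from -0.027 to 0.33 and Hnrnph2 from -0.16 (without WT 3) to 1.07. Prpf19 (-0.33) was 0.0096 with the mean of probe sets and Usp39 (-0.21) 0.0061 without probe sets ending in _x_at or _s_at. Apart from the use of fewer arrays or of other probe sets, the cause was not tested.

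Arrays share only a number: deviations of same-numbered arrays correlated by 0.07, 0.37 and 0.40, and 4 of 6 arrays correlated best with their own number. With the number as a replicate block, 0 splicing factor genes passed (lowest adjusted p = 0.0996) and 1 gene in all.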
